A study of Mus musculus with 27 samples.

Results

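The genes described here are 44 genes of DNA replication and S phase, the part of the cell cycle in which the genome is copied. They were chosen by symbol from the 21823 genes of the table. The measurements are RNA sequencing values of the mouse liver, taken from areas of the lobule that were cut out of frozen sections with a laser (laser microdissection). All mice were wild-type females labelled C57BL/6 (C57BL/6N in the study's methods), either non-pregnant (NP) or pregnant at 8 or 16 days post coitum (dpc8 and dpc16), with the day of the vaginal plug as day 0. No transgene, deletion or drug was used in any group. The study's methods give virgin females of 8 to 14 weeks and pregnant mice carrying 6 to 12 pups. Zone 1 surrounds the portal vein, where blood enters the lobule, zone 3 surrounds the central vein, where it leaves, and zone 2 lies between them. The 27 libraries fall into 9 groups of 3, 1 for each zone at each stage.

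DNA replication starts at origins. The origin recognition complex with Cdc6 and Cdt1 loads the MCM2-7 helicase in G1, and geminin blocks further loading once S phase has begun. The kinase Cdc7 with its partner Dbf4, the protein Mcm10, Cdc45 and the GINS complex turn the loaded helicase into a moving fork. Polymerase alpha with primase then lays down primers, which polymerases delta and epsilon extend with the sliding clamp PCNA, and deoxynucleotides come from ribonucleotide reductase and the thymidylate enzymes. Most of these genes are transcribed as cells approach S phase under the E2F factors, of which E2f1 is an activator and E2f7 and E2f8 are repressors. Adult hepatocytes are mostly quiescent, often polyploid, and can return to the cycle, as they do after part of the liver is removed. The liver grows during mouse pregnancy, and the study asked where in the lobule cells proliferate at each stage.

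The promoters of these genes are known for E2F sites, so windows of 250 bases before to 50 bases after each annotated start were searched (RefSeq, GRCm38.p6). A window was found for 37 of the 44 genes. An E2F motif, written as TTTCCCGC, TTTCGCGC, TTTGCCGC or TTTGGCGC on either strand, was in a window of 15 of the 37 genes (40.5%). Of all 27025 genes with a window, 704 held it (2.6%), and of 20 mitosis genes with a window 1 did (5.0%). A CCAAT box, CCAAT on either strand, was in 59.5% of the replication genes, 16 of the 20 mitosis genes and 41.1% of all genes. The cell cycle homology region, written as TTTGAA or TTTAAA on either strand, was in 29.7% of the replication genes against 90.0% of the mitosis genes and 30.6% of all genes. The shares set the replication genes apart from the mitosis genes by their letters, and a match is a description of the sequence and not of binding.

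The promoters of 4 genes are printed because these genes are the most highly expressed of their role or passed a test between stages and hold an E2F motif, which is in capitals. The windows are chr5:138171834-138172133 on the minus strand for Mcm7, chr8:75109259-75109558 on the plus strand for Mcm5, chr1:128359656-128359955 on the minus strand for Mcm6 and chr17:56304063-56304362 on the plus strand for Uhrf1. In the first of these the 2 matches lie apart, at -165 and 16 relative to the start. In Mcm5 the 2 matches overlap, and in Mcm6 the first 2 of 3 do, so that a match on the gene strand shares its last 4 bases with a match on the opposite strand.
Mcm7: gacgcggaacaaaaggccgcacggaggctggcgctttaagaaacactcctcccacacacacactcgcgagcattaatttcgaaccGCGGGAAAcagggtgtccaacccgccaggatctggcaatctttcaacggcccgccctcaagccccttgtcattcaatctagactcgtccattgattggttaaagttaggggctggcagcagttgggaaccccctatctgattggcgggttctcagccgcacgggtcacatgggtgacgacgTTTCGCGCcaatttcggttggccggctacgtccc
Mcm5: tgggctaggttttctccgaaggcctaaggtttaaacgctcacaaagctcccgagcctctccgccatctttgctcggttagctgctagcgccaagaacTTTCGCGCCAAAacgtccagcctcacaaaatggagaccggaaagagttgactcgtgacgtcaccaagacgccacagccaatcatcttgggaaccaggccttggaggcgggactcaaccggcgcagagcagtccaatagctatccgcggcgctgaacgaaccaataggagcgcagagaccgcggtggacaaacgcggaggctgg
Mcm6: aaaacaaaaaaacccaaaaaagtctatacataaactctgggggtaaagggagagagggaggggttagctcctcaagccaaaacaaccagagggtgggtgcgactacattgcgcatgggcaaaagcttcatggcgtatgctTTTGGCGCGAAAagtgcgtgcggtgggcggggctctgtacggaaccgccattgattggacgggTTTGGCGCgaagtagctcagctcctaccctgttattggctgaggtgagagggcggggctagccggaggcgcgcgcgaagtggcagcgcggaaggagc
Uhrf1: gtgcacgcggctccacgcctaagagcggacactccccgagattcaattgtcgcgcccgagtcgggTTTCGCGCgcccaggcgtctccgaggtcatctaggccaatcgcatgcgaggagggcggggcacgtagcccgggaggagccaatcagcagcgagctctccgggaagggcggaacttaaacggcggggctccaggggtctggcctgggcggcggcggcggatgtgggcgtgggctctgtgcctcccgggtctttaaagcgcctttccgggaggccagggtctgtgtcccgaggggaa

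The FPKM sum of a library (fragments per kilobase of transcript per 1e6 mapped fragments, summed over genes) ranged from 499866 to 988500, and 10581 to 11997 genes had at least 1 FPKM. Depth, read from the steps between low values, was estimated at 7.54 to 33.37 M reads (M for mega), with 1 read on 1 kilobase worth 0.03 to 0.133 FPKM. Alb was at 22396 FPKM or more in every library, and the mean log2 level of 6 periportal markers was 7.56 to 8.90 in zone 1 against 0.84 to 3.46 in zone 3, so tissue and zone labels went with their markers. In 6 libraries, however, 4 genes of the Y chromosome summed to 7.92 to 23.18 FPKM although the mice are labelled female, against 0 to 2.97 in the 21 other libraries. These are replicate 1 of zone 1 and replicate 2 of zone 3 at NP, replicate 1 of zone 1 and replicate 2 of zone 2 at dpc8, and replicate 3 of zones 2 and 3 at dpc16. In the same libraries the mean log2 level of 12 connective tissue and smooth muscle genes was 5.21 to 6.71 against 1.36 to 4.31 elsewhere, with Acta2 at 310.01 to 1856.58 FPKM against 0.033 to 142.561, while the hepatocyte markers were at 10.13 to 11.04 against 10.91 to 12.47. What these 6 libraries hold was not tested, and the main counts are given with and without them. Without them, 2 libraries remain in each group that held one.

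The replication genes were expressed at low levels. Their mean over all libraries was at least 1 FPKM for 39 of 44 and at least 10 FPKM for 4, namely Tk1 (16.38), Mcm10 (14.58), Pcna (11.03) and Rrm2 (10.92). The median of the 44 means was 3.29 FPKM, against 8.73 for the 12952 genes that had at least 1 FPKM in at least 3 libraries. Of the 44, 43 passed that filter and 35 were above 0 in every library. The gene left out was Gins3, a subunit of the GINS complex, whose highest value was 1.41 FPKM. In a bulk sample of this kind, fewer cells in S phase and less RNA per cell cannot be told apart.

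Summed over the 44 genes, the 3 NP libraries of zone 1 held 243.8, 147.6 and 154.6 FPKM (replicates 1, 2 and 3), those of zone 2 169.5, 158.1 and 162.5, and those of zone 3 176.5, 268.9 and 169.8. At dpc8 the sums were 477.4, 192.9 and 302.4 FPKM in zone 1, 226.9, 229.6 and 221.5 in zone 2, and 213.6, 148.8 and 171.9 in zone 3. At dpc16 they were 120.0, 91.5 and 170.0 FPKM in zone 1, 106.0, 88.8 and 273.8 in zone 2, and 98.6, 89.8 and 246.7 in zone 3. The highest sum of every group that holds one of the 6 libraries was in that library. Among the 21 other libraries the sums ran from 147.6 to 176.5 FPKM at NP, from 148.8 to 302.4 at dpc8 and from 88.8 to 170.0 at dpc16, so that dpc8 lay mostly above NP and dpc16 mostly below, with overlap in both cases.

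**Figure D1:**
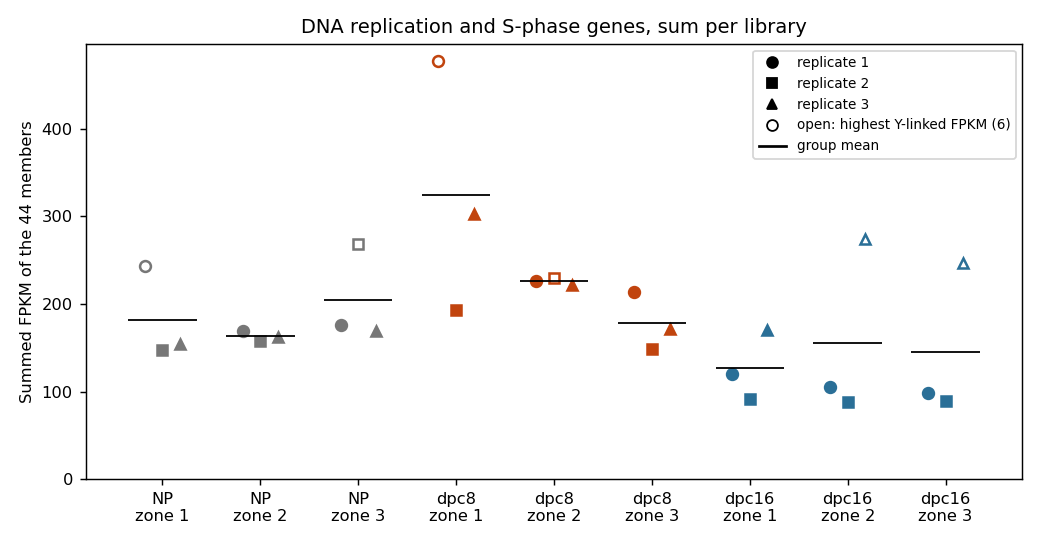
Sum of the FPKM of the 44 replication genes in each of the 27 libraries (vertical axis, FPKM) by stage and zone, with open symbols for the 6 libraries that have Y-linked FPKM of 7.92 or more. The open symbol is the highest of its group in all 6 groups that hold one, and without them the dpc16 libraries lie between 88.8 and 170.0 FPKM.

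The 6 libraries held more than the other libraries of their group for most but not all of the genes. They had the highest value of their 3 libraries for 30 and 35 of the 44 genes in NP zones 1 and 3, for 33 and 27 in dpc8 zones 1 and 2, and for 37 and 38 in dpc16 zones 2 and 3, where 37.86% to 43.72% of all genes tested were highest in the same library. For 22 mitosis genes the counts were 21, 21, 20, 16, 22 and 20. Libraries outside the 6 stood out in some groups too. Replicate 1 of dpc8 zone 3 was highest for 22 replication and 20 mitosis genes (38.6% of all genes). Replicate 3 of dpc16 zone 1 was highest for 23 and 16 (38.69%), while no library of NP zone 2 was for more than 17 and 8. For 19 replication genes, among them Orc1, Uhrf1 and E2f1, the library with Y-linked FPKM was the highest in 6 of 6 groups. Gmnn, Mcm10, Rfc5 and Tk1 were highest there in 2 of 6 groups and Rfc4, a clamp loader subunit, in 0. The part of these libraries in the differences below was not tested beyond leaving them out.

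**Figure D2:**
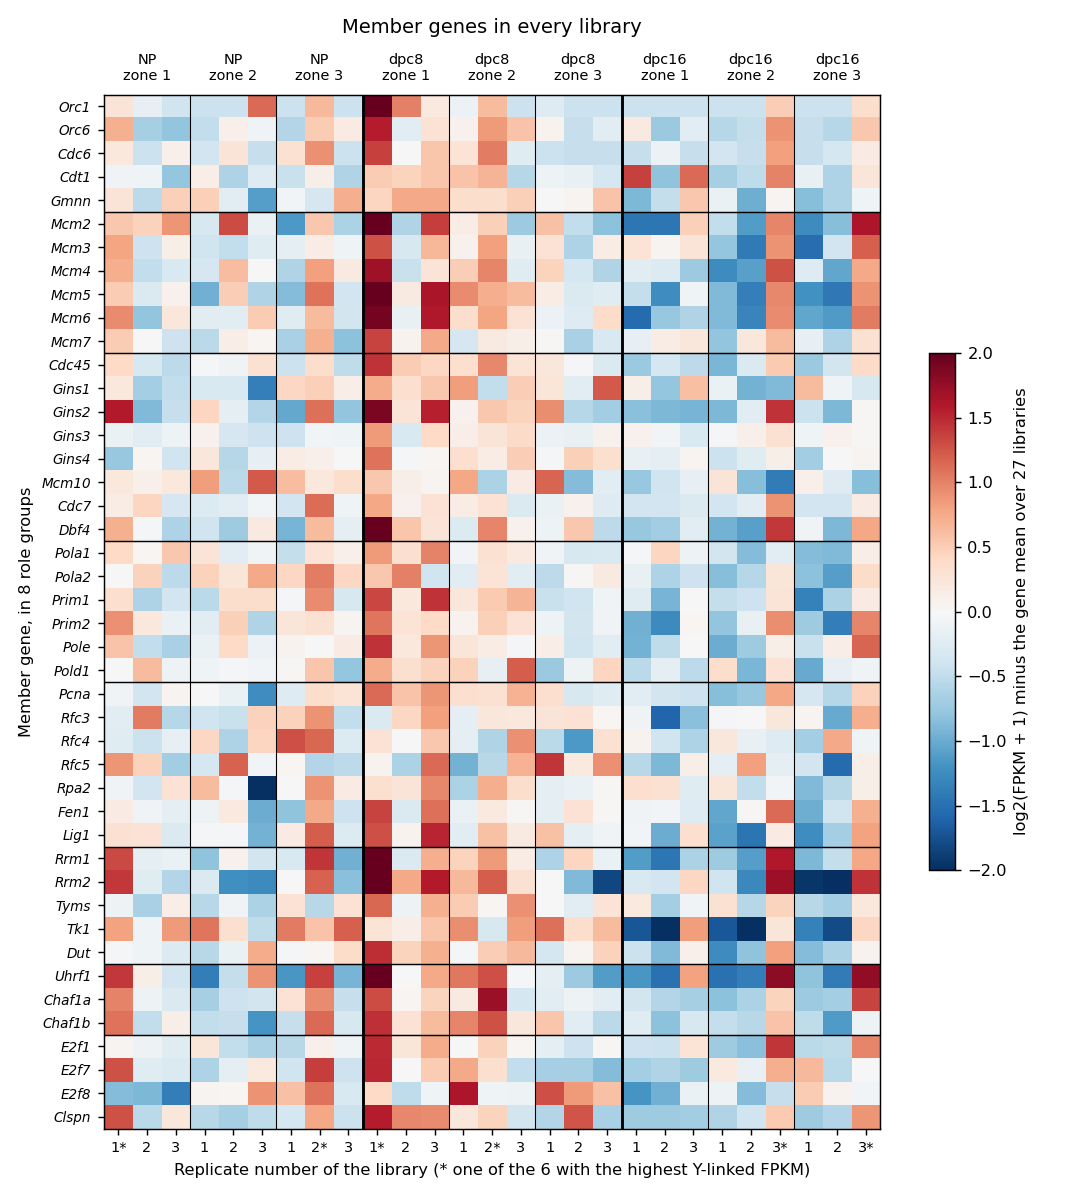
Level of each of the 44 replication genes (rows, ordered by role) in each of the 27 libraries (columns, ordered by stage and zone), drawn as log2(FPKM + 1) minus the mean of that gene over all libraries, with a star over the 6 libraries with Y-linked FPKM. The starred columns and dpc8 zone 1 are the highest for most genes, replicates 1 and 2 of dpc16 are the lowest, and the rows of Mcm10, Rfc4 and E2f8 run differently.

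Between stages, the mean levels are described first, by how many of the 44 genes were highest or lowest at each stage. In zone 1 the mean was highest at dpc8 for 42 of 44 genes and lowest at dpc16 for 36, as was that of 44.83% of all genes tested. These counts were 41 and 27 without the 6 libraries (33.31% and 36.84% of all genes). Of all genes tested, 35.29% had their highest zone 1 mean at dpc8. In zone 2 the dpc8 mean was the highest for 33 genes and without the 6 libraries for 39 (25.81% and 29.86% of all genes). The lowest there was NP for 25 (37.26% of all genes) and dpc16 for 17 (32.49%), which without the 6 libraries became 9 and 34 (25.95% and 40.8%). In zone 3 the NP mean was the highest for 28 genes and the dpc8 mean for 8 (29.69% and 27.29% of all genes), and without the 6 libraries for 17 and 25 (36.12% and 28.79%), while the dpc16 mean was the lowest for 25 (34.26%) and without the 6 for 32 (41.41%). With all libraries the stage that was most often highest or lowest thus differed between zones, and without the 6 it was dpc8 and dpc16 in each of the 3 zones.

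Differences were tested with limma on log2(FPKM + 1), a scale that understates the change of weakly expressed genes, and p-values were adjusted over all 12952 genes. A gene passed at an adjusted p under 0.05. The study's methods say in general that experiments were repeated in separate mice, but the labels do not tie these libraries to animals, so p-values measure the spread between these samples. In dpc8 against NP, 0 of 43 genes passed in any zone, where 0.0154%, 0.00772% and 0.0154% of all genes passed as higher in zones 1, 2 and 3. At an unadjusted p under 0.05, 9 genes were higher in zone 1 (1.96% of all genes), 4 in zone 2 (1.98%) and 1 in zone 3 (1.22%), with 1 lower there (1.52%). The median fitted log2 fold change of the 43 genes was 0.74 in zone 1 with 41 fitted higher, 0.46 in zone 2 with 37 higher and -0.16 in zone 3 with 13 higher. Without the 6 libraries the medians were 0.62, 0.32 and 0.12, and again 0 genes passed (0.0463%, 0.0309% and 0.0386% of all genes higher in zones 1, 2 and 3). Over all genes the median of each comparison between stages lay between -0.05 and 0.05.

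In dpc16 against dpc8, 0 of 43 genes passed within a zone, where 0.741%, 0.803% and 0.788% of all genes passed as lower in zones 1, 2 and 3. Zone 1 came closest. There 42 of 43 genes were fitted lower at a median of -1.14, 27 were lower at an unadjusted p under 0.05 (6.6% of all genes), and for 21 the 3 dpc16 values all lay below the 3 dpc8 values (10.1% of all genes). The smallest adjusted p was 0.0666 for Clspn. The medians in zones 2 and 3 were -0.55 and -0.22, with 38 and 30 genes fitted lower and 4 and 2 at an unadjusted p under 0.05 (6.28% and 6.97% of all genes). When 1 library was left out, the median ran from -0.921 to -0.206 in zone 2 and from -0.595 to 0.015 in zone 3. Without the 6 libraries 4 genes fell in zone 1 (Cdc45, Clspn, Gins2 and Mcm6, against 2.03% of all genes), 3 fell in zone 2 (Mcm5, Tk1 and Pcna, against 1.81%) and 0 passed in zone 3 (1.89%, with 14 lower at an unadjusted p under 0.05, as were 8.02% of all genes), and the medians were -0.92, -0.84 and -0.60. Leaving out replicate 3 of zone 2 at dpc16 alone gave 5 genes in zone 1, leaving out the same number of zone 3 gave 2, and 4 other libraries gave 1 each. The shares of all genes in these fits are not given, so the counts are not read as a result about the replication genes.

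Over the mean of the 3 zones, 9 of 43 genes fell from dpc8 to dpc16, namely Tk1, Dut, Cdc45, Gmnn, Chaf1b, Prim1, E2f8, Mcm5 and Mcm6, where 5.69% of all genes fell. Other measures moved with dpc16 as well. Outside the 6 libraries the FPKM sum was 834568 to 988500 at dpc16 against 567659 to 650820 at dpc8, and the mean log2 level of the hepatocyte markers 11.93 to 12.47 against 10.91 to 11.32. The connective tissue level there was 1.365 to 1.863 at dpc16, apart from 3.561 in replicate 3 of zone 1, against 1.453 to 4.307 at dpc8. The part of these measures in the fall was not tested, with or without the 6 libraries. All 43 were fitted lower, at a median of -0.60, and 23 were lower at an unadjusted p under 0.05 (12.4% of all genes). The last gene inside the threshold was Mcm6 at an adjusted p of 0.0458 and the nearest outside it was Pcna at 0.0513. Without the 6 libraries 24 genes fell (9.21% of all genes), all 6 polymerase and primase genes and all 5 genes of deoxynucleotide supply among them, while E2f8 no longer passed, at -0.78 beside -0.79. When 1 library was left out, the count was 1 without replicate 2 of zone 3 at dpc16, 14 without replicate 3 of that zone, 16 without replicate 3 of zone 2 at dpc16, and 2 to 5 without any other library of dpc8 or dpc16 except replicate 2 of zone 1 at dpc8 and replicate 3 of zone 1 at dpc16. These counts too stand without the share of all genes in the same fit, and show only how the call depends on single libraries. Libraries of the same replicate number deviated together across zones at dpc16, and the labels do not say whether such zones came from the same animal, so p-values over the mean of zones may be too small. When the 3 zones of a number were averaged to 1 sample, 3 against 3, 0 genes passed, with 15 lower at an unadjusted p under 0.05 (8.55% of all genes) and a smallest adjusted p of 0.176, where 2.14% of all genes passed in either direction.

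In dpc16 against NP, 0 of 43 genes passed within a zone, where 0.371%, 1.64% and 0.571% of all genes passed as lower in zones 1, 2 and 3. At an unadjusted p under 0.05, 2, 3 and 2 genes were lower (4.54%, 9.47% and 6.31% of all genes). The medians were -0.35, -0.01 and -0.29, and without the 6 libraries -0.22, -0.37 and -0.43. Over the mean of zones 2 of 43 genes fell, Tk1 and Pola2, which is no larger a share than the 6.15% of all genes that fell. Only Tk1 fell when replicate 2 of zone 1 or zone 3 at NP, replicate 2 of zone 1 at dpc16 or replicate 1 or 2 of zone 3 at dpc16 was left out. Pola2 passed in 21 of the 27 fits that left out 1 library. When the 6 libraries were left out, Prim2, Dut and Mcm6 fell as well (8.05% of all genes). In dpc8 against NP over the mean of zones 0 genes passed (0.0772% of all genes higher), with 38 fitted higher at a median of 0.38 and 7 at an unadjusted p under 0.05 (2.93%), which became 14 without the 6 libraries (4.44%) at a median of 0.37. With the zones of a number averaged, 0 genes passed in both comparisons, 3 were lower at dpc16 than at NP at an unadjusted p under 0.05 (8.79% of all genes) and 2 higher at dpc8 than at NP (1.49%). The comparisons with dpc8 share the dpc8 libraries, and those with NP share the NP libraries.

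**Figure D3:**
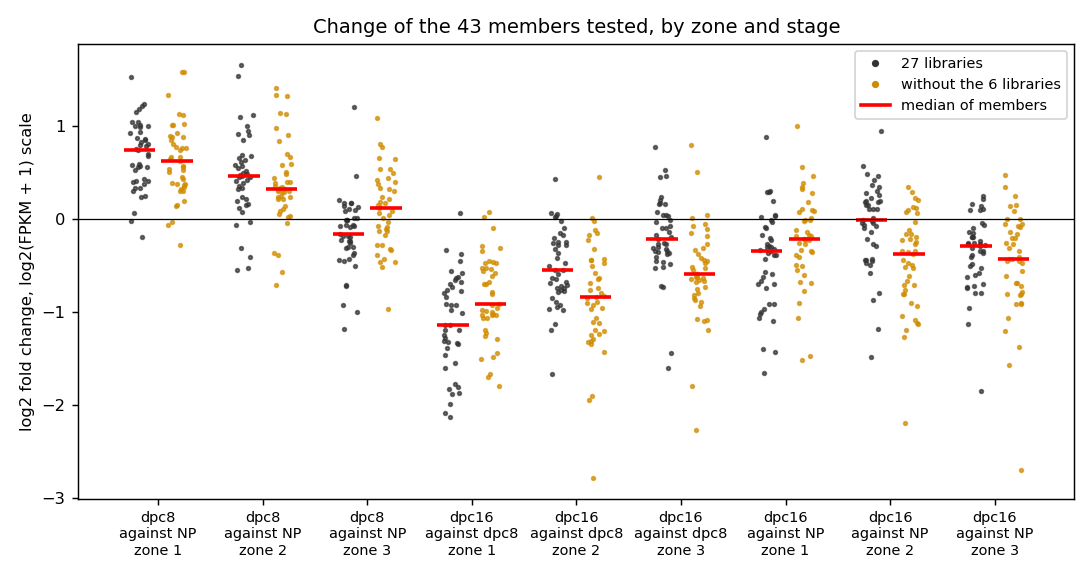
Fitted log2 fold change, on the log2(FPKM + 1) scale, of each replication gene tested in the 9 comparisons between stages within a zone, from all 27 libraries and after leaving out the 6 that have Y-linked FPKM, with the median marked. The medians of dpc16 against dpc8 are -1.14, -0.55 and -0.22 in zones 1, 2 and 3 with all libraries and -0.92, -0.84 and -0.60 without the 6.

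Among the 5 licensing genes, Gmnn, which encodes the inhibitor geminin, had the highest mean (5.79 FPKM). Gmnn in NP libraries was at 6.55, 3.39 and 7.87 FPKM in zone 1, 7.87, 4.401 and 1.96 in zone 2, and 5.13, 4.01 and 9.45 in zone 3. Gmnn at dpc8 was at 7.58, 9.67 and 9.71 FPKM in zone 1, 7.12, 7.08 and 7.84 in zone 2, and 5.36, 5.58 and 8.43 in zone 3. Gmnn at dpc16 measured 2.39, 3.54 and 8.25 FPKM in zone 1, 4.78, 2.23 and 5.58 in zone 2, and 2.53, 3.15 and 4.95 in zone 3. The dpc8 values lay between 5.36 and 9.71 FPKM in all zones, and 7 of the 9 dpc16 values lay below them. Over the mean of zones Gmnn fell by 0.80 on the log2 scale (SE 0.23, adjusted p = 0.0291). Orc1, the largest subunit of the origin recognition complex, was at 5.09, 1.69 and 0.54 FPKM in dpc8 zone 1 and at 0.598, 0.2 and 0.017 in NP zone 1, and was listed at 0 in 14 libraries. Its 3 dpc8 values in zone 1 were higher than 2 of the 3 NP values, with a fitted difference of 1.23 (SE 0.47, adjusted p = 1). Cdc6, which brings the helicase to the origin, was at 0.705, 1.597 and 0.021 FPKM in NP zone 3 and at 0.025, 0 and 0 in dpc8 zone 3, with a fitted difference of -0.71 (adjusted p = 1) that rests on low values and was -0.39 without the 6 libraries. Orc6 and Cdt1 had means of 4.56 and 4.1 FPKM and passed in no comparison.

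The 6 MCM genes encode the ring of the replicative helicase. Mcm7 had the highest mean (7.45 FPKM). Mcm7 in NP libraries was at 10.2, 6.84 and 4.96 FPKM in zone 1, 4.42, 7.67 and 7.12 in zone 2, and 4.07, 12 and 3.49 in zone 3. Mcm7 at dpc8 was at 19.1, 7.26 and 12.4 FPKM in zone 1, 5.29, 7.99 and 7.58 in zone 2, and 7.04, 4.02 and 5.43 in zone 3. Mcm7 at dpc16 measured 6.05, 7.73 and 8.28 FPKM in zone 1, 3.56, 8.28 and 11.2 in zone 2, and 6.09, 4.18 and 8.804 in zone 3. Its groups overlapped between all stages in zone 2, and the dpc16 zone 3 library with Y-linked FPKM was its highest there. Mcm7 passed in no comparison, and its exons overlap those of Cops6 and Ap4m1 on the opposite strand, whose reads cannot be told apart without strand.

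Mcm5, another subunit of the ring, at chr8:75109569-75128439, fell from dpc8 to dpc16. Mcm5 in NP libraries was at 3.29, 1.47 and 2.22 FPKM in zone 1, 0.558, 3.25 and 0.996 in zone 2, and 0.651, 5.42 and 1.32 in zone 3. Mcm5 at dpc8 was at 11.4, 2.42 and 8.36 FPKM in zone 1, 4.796, 3.98 and 3.69 in zone 2, and 2.35, 1.46 and 1.55 in zone 3. Mcm5 at dpc16 measured 1.177, 0.276 and 1.84 FPKM in zone 1, 0.645, 0.177 and 4.86 in zone 2, and 0.309, 0.119 and 4.65 in zone 3. The dpc8 values were at 1.46 FPKM or more in every library, while replicates 1 and 2 of dpc16 were at 1.177 FPKM or less and replicate 3 at 1.84 or more. Its log2 fold change was -1.176 (SE 0.37, adjusted p = 0.0439) over the mean of zones and -1.53 without the 6 libraries (adjusted p = 0.000875). Mcm6, its neighbour in the test, was at 15.9, 3.05 and 12.6 FPKM in dpc8 zone 1 and at 0.531, 1.65 and 1.96 in dpc16 zone 1, where the groups did not overlap. Mcm6 fell by 1.12 (SE 0.36, adjusted p = 0.0458) over the mean of zones. The calls of Mcm5 and Mcm6 held in 11 and 8 of the 27 fits that left out 1 library. The other MCM genes had means of 3.89 (Mcm2), 4.5 (Mcm3) and 3.71 FPKM (Mcm4).

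Of the 8 genes that activate the helicase, Mcm10 had the highest mean (14.58 FPKM). Mcm10 in NP libraries was at 15.4, 14.2 and 15.4 FPKM in zone 1, 24.4, 8.72 and 32.2 in zone 2, and 20.7, 15.4 and 17.1 in zone 3. Mcm10 at dpc8 was at 19.6, 14.3 and 13.7 FPKM in zone 1, 23.1, 8.15 and 14.9 in zone 2, and 30.8, 6.76 and 11.1 in zone 3. Mcm10 at dpc16 measured 7.34, 9.69 and 11.6 FPKM in zone 1, 15.8, 6.83 and 4.35 in zone 2, and 14.2, 10.8 and 6.88 in zone 3. Its pattern differed from that of the MCM ring, with its highest values in NP zone 2 and dpc8 zone 3 and the library with Y-linked FPKM at the top of 2 of 6 groups. In zone 2 the fitted difference of dpc16 from NP was -1.179 (SE 0.48, adjusted p = 0.215), and over the mean of zones -0.84 (adjusted p = 0.0531), just outside the threshold.

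Cdc45, which rides with the moving helicase, was among the weaker of the genes that fell. Cdc45 in NP libraries was at 1.47, 0.509 and 0.305 FPKM in zone 1, 0.842, 0.784 and 1.33 in zone 2, and 0.393, 1.38 and 0.321 in zone 3. Cdc45 at dpc8 was at 4.08, 1.67 and 1.49 FPKM in zone 1, 1.36, 2.63 and 1.27 in zone 2, and 1.21, 0.846 and 0.532 in zone 3. Cdc45 at dpc16 measured 0.124, 0.464 and 0.308 FPKM in zone 1, 0, 0.539 and 1.68 in zone 2, and 0.117, 0.453 and 1.45 in zone 3. Apart from the 2 dpc16 libraries with Y-linked FPKM, every dpc16 value was at most 0.539 FPKM. Cdc45 fell by 0.76 (SE 0.22, adjusted p = 0.0267) over the mean of zones, and in zone 1 without the 6 libraries by 0.998 (adjusted p = 0.0276). Its exons overlap those of Ufd1 on the opposite strand. Gins4 was at 19, 8.36 and 8.72 FPKM in dpc8 zone 1 and 4.59, 8.71 and 6.17 in NP zone 1, with a fitted difference of 0.74 (adjusted p = 1) that was 0.19 without the 6 libraries. Gins1 was at 6.23, 1.88 and 4.64 FPKM in dpc8 zone 2 and 2.25, 2.26 and 0.567 in NP zone 2, with a fitted difference of 0.94 (adjusted p = 0.971) and overlapping groups. Gins2 passed without the 6 libraries in dpc16 against dpc8, in zone 1 (-1.80, adjusted p = 0.0352). Cdc7 and Dbf4, the kinase and its partner, had means of 0.36 and 3.05 FPKM.

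Pola2, the regulatory subunit of polymerase alpha, had the highest mean of the 6 polymerase and primase genes (5.01 FPKM). Pola2 in NP libraries was at 4.58, 6.69 and 2.87 FPKM in zone 1, 6.65, 5.64 and 8.45 in zone 2, and 6.43, 10.4 and 6.44 in zone 3. Pola2 at dpc8 was at 7.08, 10.2 and 3.25 FPKM in zone 1, 3.75, 5.75 and 3.78 in zone 2, and 2.88, 4.68 and 5.32 in zone 3. Pola2 at dpc16 measured 4.04, 2.66 and 3.19 FPKM in zone 1, 2.101, 2.78 and 5.62 in zone 2, and 2.16, 1.61 and 6.22 in zone 3. In zones 2 and 3 every dpc16 value was below every NP value. Pola2 fell from NP to dpc16 by 0.79 (SE 0.23, adjusted p = 0.0238) over the mean of zones and by 0.97 without the 6 libraries (adjusted p = 0.00565). Within zones 2 and 3 the differences were -0.88 (adjusted p = 0.258) and -1.14 (adjusted p = 0.193). In zone 3 the dpc8 values were below the NP values too, with a difference of -0.73 (adjusted p = 1).

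Prim1, the catalytic primase subunit, followed the stage order of zone 1. Prim1 in NP libraries was at 2.58, 0.854 and 1.178 FPKM in zone 1, 0.95, 2.605 and 2.62 in zone 2, and 1.76, 4.46 and 1.26 in zone 3. Prim1 at dpc8 was at 6.12, 2.29 and 6.74 FPKM in zone 1, 2.31, 3.05 and 3.54 in zone 2, and 1.07, 1.15 and 1.69 in zone 3. Prim1 at dpc16 measured 1.397, 0.48 and 1.86 FPKM in zone 1, 1.04, 1.12 and 2.37 in zone 2, and 0.111, 0.833 and 2.15 in zone 3. In dpc8 zone 1 all libraries were at 2.29 FPKM or more, and the NP zone 1 library with Y-linked FPKM was the only one there that reached this level. The fitted difference of dpc8 from NP in zone 1 was 1.22 (SE 0.42, adjusted p = 1). From dpc8 to dpc16 Prim1 fell by 0.79 (SE 0.24, adjusted p = 0.0394) over the mean of zones. Its difference of dpc16 from NP in zone 3 was -0.80 (adjusted p = 0.505).

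The other genes of this role were weaker. Pole, the catalytic subunit of polymerase epsilon, was at 2.39, 0.611 and 0.452 FPKM in NP zone 1 and 5.19, 1.62 and 3.21 in dpc8 zone 1, with a fitted difference of 1.04 (adjusted p = 1). Prim2, the large primase subunit, was at 4.25, 2.23 and 1.54 FPKM in NP zone 1 and 0.433, 0.15 and 1.87 in dpc16 zone 1, a difference of -1.06 (adjusted p = 0.428). Those groups overlapped in both genes. Pola1, the catalytic subunit of polymerase alpha, was at 2.08, 1.19 and 1.46 FPKM in NP zone 2 and 0.987, 0.402 and 1.23 in dpc16 zone 2 (-0.47, adjusted p = 0.466). In zone 3 it was at 0.844, 2.11 and 1.76 FPKM at NP and 0.404, 0.4 and 1.83 at dpc16 (-0.50, adjusted p = 0.583). Pold1, of polymerase delta, had a mean of 2.11 FPKM and passed only without the 6 libraries, from dpc8 to dpc16 over the mean of zones (-0.79, adjusted p = 0.038).

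Pcna, the sliding clamp, had the highest mean of the 7 genes of the clamp, its loader and the lagging strand (11.03 FPKM). Pcna in NP libraries was at 9.61, 7.61 and 10.7 FPKM in zone 1, 10.2, 9.19 and 3.71 in zone 2, and 8.31, 13.2 and 12.5 in zone 3. Pcna at dpc8 was at 23.5, 15.6 and 19.7 FPKM in zone 1, 13.2, 12.8 and 17.1 in zone 2, and 13.1, 7.96 and 8.51 in zone 3. Pcna at dpc16 measured 8.64, 7.695 and 7.36 FPKM in zone 1, 5.21, 5.58 and 18.2 in zone 2, and 7.83, 6.56 and 14.5 in zone 3. In zones 1 and 2 the dpc8 values were all above the NP values, and the dpc16 libraries with Y-linked FPKM were the highest of that stage. The differences of dpc8 from NP were 0.99 in zone 1 (SE 0.38, adjusted p = 1) and 0.91 in zone 2 (SE 0.38, adjusted p = 0.971).

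Of the clamp loader subunits, Rfc4 and Rfc5 had the smallest p-values of dpc8 against NP in zone 3, in opposite directions. Rfc4 was at 8.02, 7.16 and 2.06 FPKM in NP zone 3 and 1.54, 0.662 and 3.58 in dpc8 zone 3, with overlapping groups and a difference of -1.181 (adjusted p = 1). Rfc5 was at 4.69, 2.66 and 2.86 FPKM and 13.8, 5.297 and 9.46 in the same groups, without overlap, and its difference was 1.20 (adjusted p = 1). Both have exons that overlap a coding gene on the opposite strand, Eif4a2 and Wsb2. Rfc3 was at 3.56, 9.98 and 2.58 FPKM in NP zone 1 and 4.08, 0.77 and 1.99 in dpc16 zone 1 (-0.91, adjusted p = 0.502). Rpa2, a subunit of the protein that coats single strands, was at 3.02, 6.47 and 3.45 FPKM in NP zone 3 and 1.16, 1.71 and 3.35 in dpc16 zone 3 (-0.80, adjusted p = 0.591). Fen1, the flap nuclease of Okazaki fragments, and Lig1, the ligase that joins them, had means of 2.24 and 3.3 FPKM.

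Tk1, the cytosolic thymidine kinase at chr11:117815526-117826092, had the highest mean of all 44 genes (16.38 FPKM) and the smallest adjusted p of the stage comparisons over the mean of zones. Tk1 in NP libraries was at 23.3, 12.1 and 24.2 FPKM in zone 1, 28.2, 16.4 and 8.85 in zone 2, and 27.9, 19.6 and 31.1 in zone 3. Tk1 at dpc8 was at 15.9, 14.3 and 19.6 FPKM in zone 1, 25.6, 10.1 and 23.9 in zone 2, and 29.1, 16.8 and 20.6 in zone 3. Tk1 at dpc16 measured 3.27, 1.39 and 23.8 FPKM in zone 1, 3.31, 2.25 and 15.5 in zone 2, and 4.49, 3.02 and 17.7 in zone 3. At dpc16 replicates 1 and 2 were at 1.39 to 4.49 FPKM in every zone, below all NP and dpc8 values, while replicate 3 was at 15.5 to 23.8 FPKM in every zone, within the NP range. The replicate 3 libraries of zones 2 and 3 are among the 6 with the most Y-linked FPKM, and that of zone 1 had 2.97 FPKM of these genes, the highest of the 21 others, against 0 in replicates 1 and 2 of its group. Its connective tissue level was 3.56 against 1.77 and 1.85 there, and the part of this in the Tk1 values was not tested. Over the mean of zones Tk1 fell from NP to dpc16 by 1.66 (SE 0.40, adjusted p = 0.0083) and from dpc8 to dpc16 by 1.58 (SE 0.40, adjusted p = 0.0126). With the zones of a number averaged to 1 sample, neither fall passed with limma (adjusted p = 0.186 and 0.224). Within zones the differences of dpc16 from NP were -1.66, -1.48 and -1.84 in zones 1, 2 and 3 (adjusted p = 0.355, 0.29 and 0.254). Tk1 was 1 of 5 genes that were not fitted higher at dpc8 than at NP, with a difference of -0.08 over the mean of zones (SE 0.40). Its exons overlap those of Afmid on the opposite strand over 83 bases.

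Dut, the enzyme that removes dUTP, was among the 9 genes that fell. Dut in NP libraries was at 6.89, 6.66 and 5.704 FPKM in zone 1, 4.5, 6.38 and 12.5 in zone 2, and 6.897, 7.33 and 9.52 in zone 3. Dut at dpc8 was at 21.5, 10.1 and 12.3 FPKM in zone 1, 6.99, 10.4 and 11.7 in zone 2, and 5.35, 7.47 and 10.1 in zone 3. Dut at dpc16 measured 5.04, 3.4 and 7.73 FPKM in zone 1, 2.38, 3.63 and 13.3 in zone 2, and 3.44, 4.26 and 7.498 in zone 3. In dpc8 zone 1 every value was above 10 FPKM and above every dpc16 zone 1 value. Dut fell by 0.86 (SE 0.25, adjusted p = 0.0264) from dpc8 to dpc16 over the mean of zones.

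Rrm2, the inducible small subunit of ribonucleotide reductase, had the widest range of the role, from 1.005 to 57.7 FPKM. Rrm2 in NP libraries was at 20.9, 6.01 and 4.52 FPKM in zone 1, 5.74, 2.53 and 2.41 in zone 2, and 7.21, 17.7 and 3.63 in zone 3. Rrm2 at dpc8 was at 57.7, 12.96 and 23.7 FPKM in zone 1, 11.99, 18.2 and 9.17 in zone 2, and 7.35, 3.501 and 1.35 in zone 3. Rrm2 at dpc16 measured 5.69, 5.35 and 10.01 FPKM in zone 1, 5.28, 2.39 and 26.1 in zone 2, and 1.16, 1.005 and 21.4 in zone 3. At dpc8 zone 1 lay above zone 3 in every library, and zone 2 did as well. In zone 2 the dpc8 values were all above the NP values, with a difference of 1.66 (SE 0.84, adjusted p = 0.971). Rrm1, the large subunit, was at 16.3, 5.098 and 5.303 FPKM in NP zone 1 and 2.19, 1.54 and 3.47 in dpc16 zone 1, where the groups did not overlap (-1.398, adjusted p = 0.479). Tyms, thymidylate synthase, was at 5.88, 8.62 and 5.502 FPKM in NP zone 2 and 13.3, 9.43 and 17.97 in dpc8 zone 2, again without overlap (0.91, adjusted p = 0.965).

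A group of 3 genes acts on chromatin behind the fork. Uhrf1, which reads hemimethylated DNA for the maintenance methyltransferase, had the highest mean (3.14 FPKM). Uhrf1 in NP libraries was at 6.52, 2.05 and 1.175 FPKM in zone 1, 0.083, 1.02 and 4.25 in zone 2, and 0.264, 6.29 and 0.483 in zone 3. Uhrf1 at dpc8 was at 19.8, 1.79 and 3.76 FPKM in zone 1, 4.85, 5.91 and 1.76 in zone 2, and 1.49, 0.706 and 0.304 in zone 3. Uhrf1 at dpc16 measured 0.257, 0 and 3.91 FPKM in zone 1, 0, 0.081 and 8.74 in zone 2, and 0.617, 0.072 and 8.596 in zone 3. At dpc16 the 6 libraries of replicates 1 and 2 were at 0.62 FPKM or below, and those of replicate 3 at 3.91 or above. The library with Y-linked FPKM was the highest of its group in 6 of 6 groups. Chaf1b, the middle subunit of chromatin assembly factor 1, was more even. Chaf1b in NP libraries was at 4.93, 0.988 and 2.03 FPKM in zone 1, 0.982, 1.03 and 0.233 in zone 2, and 1.03, 5.13 and 1.23 in zone 3. Chaf1b at dpc8 was at 6.698, 2.4 and 3.32 FPKM in zone 1, 4.52, 5.74 and 2.27 in zone 2, and 3.11, 1.41 and 0.919 in zone 3. Chaf1b at dpc16 measured 1.36, 0.58 and 1.25 FPKM in zone 1, 1.02, 0.91 and 3.16 in zone 2, and 0.964, 0.27 and 1.61 in zone 3. Its dpc8 values in zone 2 were all above its NP values, with a difference of 1.54 (SE 0.48, adjusted p = 0.902). From dpc8 to dpc16 Chaf1b fell by 0.91 (SE 0.28, adjusted p = 0.0357) over the mean of zones. Chaf1a, the large subunit, had a mean of 1.02 FPKM.

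E2f8, the atypical E2F repressor, had the highest mean of the E2F and checkpoint genes (4.74 FPKM). E2f8 in NP libraries was at 1.75, 1.69 and 0.916 FPKM in zone 1, 4.16, 4.16 and 8.29 in zone 2, and 6.46, 9.596 and 3.04 in zone 3. E2f8 at dpc8 was at 5.57, 2.52 and 3.73 FPKM in zone 1, 14.4, 3.69 and 3.67 in zone 2, and 11.2, 8.05 and 6.48 in zone 3. E2f8 at dpc16 measured 1.21, 1.57 and 3.55 FPKM in zone 1, 3.67, 1.75 and 2.64 in zone 2, and 6.08, 4.23 and 3.804 in zone 3. The values of zone 1 were below those of zone 3 at every stage without overlap, which at dpc8 was seen in none of the other 42 genes tested. From dpc8 to dpc16 the log2 fold change of E2f8 over the mean of zones was -0.79 (SE 0.25, adjusted p = 0.0424), and without the 6 libraries -0.78 (adjusted p = 0.069). In zone 2 its dpc16 values were all below its NP values (-0.80, adjusted p = 0.368). E2f7, the other atypical repressor, was at 0.423, 3.88 and 0.395 FPKM in NP zone 3 and 0.176, 0.185 and 0.022 in dpc8 zone 3 (-0.92, adjusted p = 1), and without the 6 libraries the difference was -0.33. Clspn, which encodes the checkpoint mediator claspin, was at 2.97, 0.128 and 0.914 FPKM in NP zone 1, 3.87, 2.21 and 2.16 in dpc8 zone 1 and 0, 0 and 0.018 in dpc16 zone 1, with dpc16 below both other stages (-1.02 against NP, adjusted p = 0.488). E2f1, the activator, had a mean of 1.34 FPKM.

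**Figure D4:**
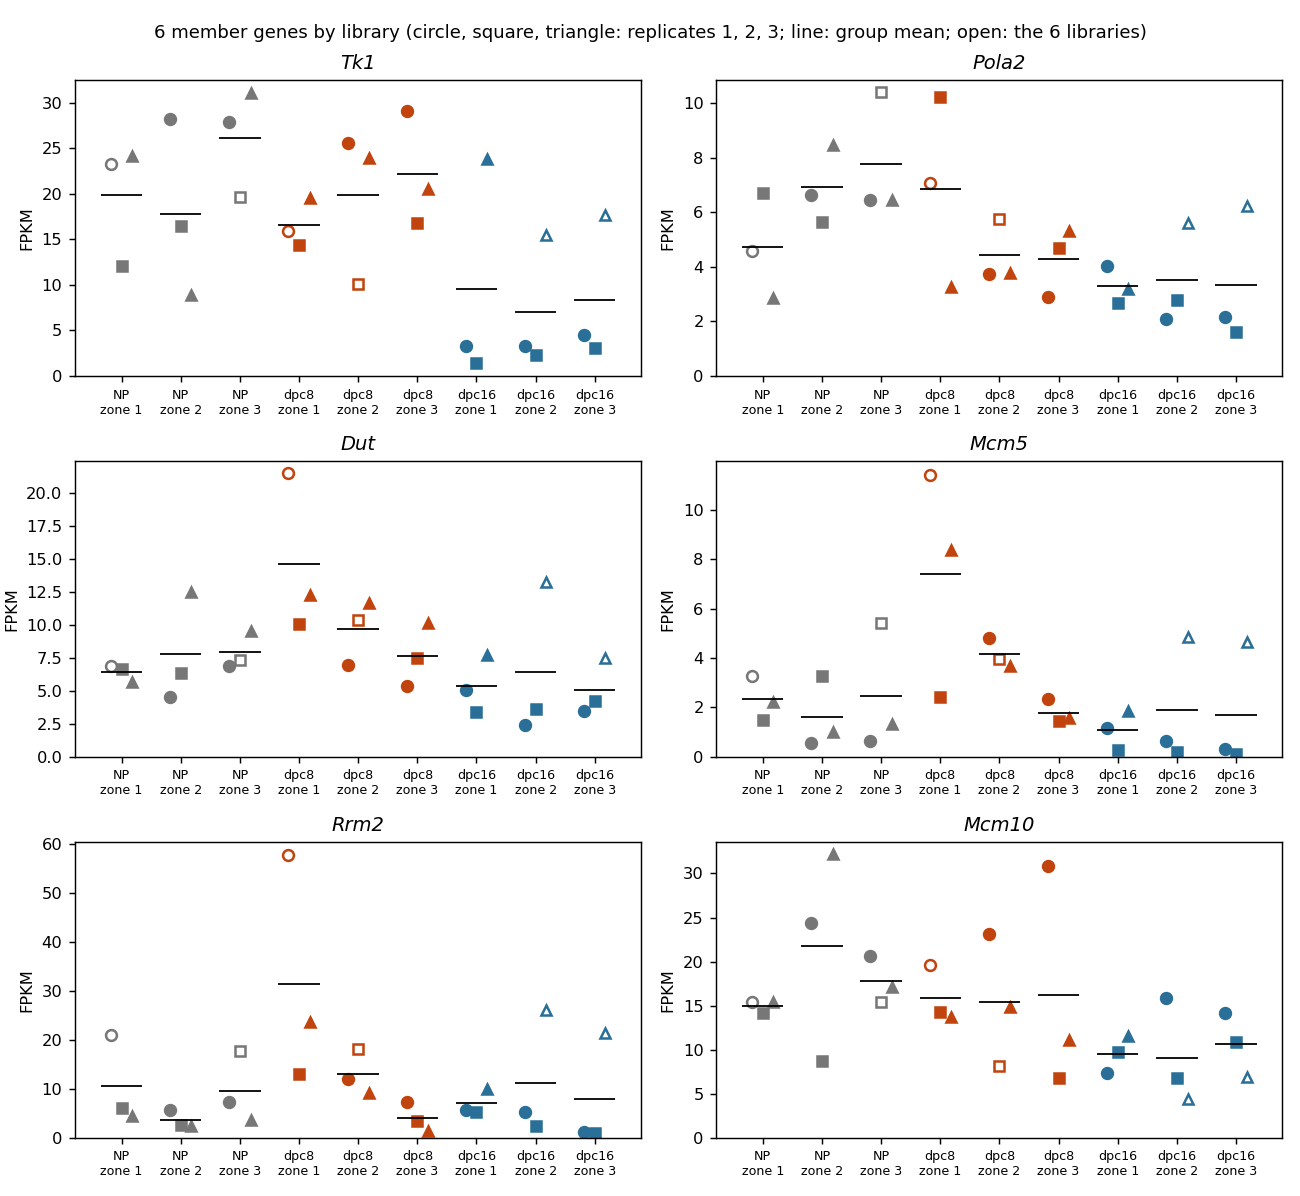
FPKM of Tk1, Pola2, Dut, Mcm5, Rrm2 and Mcm10 in each library by stage and zone, with open symbols for the 6 libraries with Y-linked FPKM. Replicate 3 of dpc16 stands at 15.5 to 23.8 FPKM of Tk1 in all zones while replicates 1 and 2 lie at 1.39 to 4.49, and Rrm2 is highest in dpc8 zone 1.

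Between zones, the widest median difference was that of zone 1 from zone 3 at dpc8, where no gene passed. At dpc8 40 of 43 genes were fitted higher in zone 1, at a median of 0.81. For 17 genes all 3 values in zone 1 lay above all 3 in zone 3 (12.8% of all genes), and 13 were higher at an unadjusted p under 0.05 (6.69%), but 0 passed (0.679% of all genes passed as higher). The medians at NP and dpc16 were -0.04 and -0.13, with 0 genes passed (0.525% and 0.78% of all genes passed as higher) and 0 and 1 higher at an unadjusted p under 0.05 (4.04% and 4.79%). With the 6 libraries left out the median at dpc8 was 0.53 and at dpc16 0.26, and Rrm2 passed at both, with differences of 2.06 (adjusted p = 0.0265, 1.49% of all genes higher) and 1.90 (adjusted p = 0.0427, 1.45%). With all libraries Rrm2 differed by 2.61 at dpc8 (SE 0.84, adjusted p = 0.148) and by 0.76 at dpc16 (adjusted p = 0.946).

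The smallest p of this comparison at dpc8 was that of Orc1, with a difference of 1.49 (SE 0.47, adjusted p = 0.136), and Pola1, Rrm2 and Prim1 came next with adjusted p-values of 0.142, 0.148 and 0.156. By role, the median difference was 1.08 for the 6 MCM genes, 0.86 for the 6 polymerase and primase genes and 0.48 for the 7 genes of helicase activation tested. E2f8 ran the other way, with zone 1 below zone 3 by 1.497, 0.97 and 0.93 log2 units that did not pass at NP, dpc8 or dpc16 (adjusted p = 0.125, 0.357 and 0.59).

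Zone 2 lay between the outer zones at dpc8. Zone 1 was above zone 2 at a median of 0.42 with 40 genes fitted higher, and zone 2 above zone 3 at 0.38 with 37, of which 10 did not overlap (6.64% of all genes). In both comparisons 0 genes passed at any stage, where 0.0232% of all genes passed as higher in zone 1 than in zone 2 at dpc8 and at most 0.317% in any of these comparisons and directions, and at most 1 was past an unadjusted p of 0.05.

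The change from NP to dpc8 differed between zones 1 and 3 by a median of 0.83 log2 units, with 42 of 43 genes fitted as more positive in zone 1. Between zones 2 and 3 the median was 0.58. When 1 library was left out, these medians ran from 0.52 to 1.125 and from 0.344 to 0.742. The test of such a difference in change was passed by 0 of the 43 genes in each of the 6 contrasts of this kind, where at most 0.0386% of all genes passed in either direction. At an unadjusted p under 0.05, 7 were higher in zone 1 minus zone 3 (1.58% of all genes), led by Prim1 at 1.72 (SE 0.60, adjusted p = 1). Leaving out the 6 libraries gave a median of 0.54 and left 3 genes higher at an unadjusted p under 0.05 (2.29% of all genes). The corresponding change to dpc16 had medians of -0.02 for zone 1 minus zone 3, -0.35 for zone 1 minus zone 2 and 0.29 for zone 2 minus zone 3, which without the 6 libraries were 0.27, 0.26 and -0.01.

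Other genes of the same process were tested in the same fit. Of 33 further replication genes 31 were tested, led in level by Rnaseh2c (mean 110.2 FPKM) and Rfc2 (mean 19.8 FPKM). From dpc8 to dpc16 over the mean of zones 3 of them fell, namely Rpa1 (-0.59), Rnaseh2b (-0.91) and Mcm8 (-0.62), where 5.69% of all genes fell, at a list median of -0.23, and in zone 1 the clamp loader factor Chtf18 fell (-1.97). From NP to dpc16 2 of the 31 fell, Rpa3 (-0.84) and Rnaseh2b (-0.76), which is near the 6.15% of all genes that fell. Of 22 further S-phase regulators 21 were tested, led by Dctpp1 (mean 32.9 FPKM) and Tfdp1 (mean 17.8 FPKM). Samhd1, which breaks down deoxynucleotides, fell from dpc8 to dpc16 (-0.80), and the factor E2f3 rose from NP to dpc16 (0.52). Without the 6 libraries 6 genes of each of these lists fell from dpc8 to dpc16 over the mean of zones (9.21% of all genes). All the genes named as falling or rising had an adjusted p under 0.05 with limma, and p-values over the mean of zones may be too small here too.

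Histone genes of the replication-dependent clusters have messages without a poly(A) tail, which libraries made by ribosomal RNA depletion can hold. Of 67 such symbols 54 were tested, led by Hist1h2bc (mean 56.03 FPKM) and Hist1h4h (mean 52.5 FPKM), and 2 were at 0 in every library. Their sum was 525.9 to 1278.4 FPKM in the 6 libraries with Y-linked FPKM and 228.1 to 521.9 in the 21 others. Among those 21 it was 228.1 to 423.5 FPKM at NP, 346.7 to 521.9 at dpc8 and 310.9 to 397.3 at dpc16. From dpc8 to dpc16 over the mean of zones the list median was -0.68, but Hist2h3c1 (1.35) and Hist2h3c2 (1.03) rose (5.37% of all genes) while Hist1h1a (-1.35) and Hist1h2bn (-1.90) fell (5.69%). Leaving out the 6 libraries gave 17 histone genes that fell (9.21%) and 2 that rose, and p-values over the mean of zones may be too small for these as well. In zone 1 Hist1h3a fell (-2.63, 0.741% of all genes), and in zone 2 Hist2h3c2 rose (1.72, 0.703% of all genes). Against NP, Hist2h3c1 (1.10), Hist2h3c2 (0.76) and Hist1h4i (1.20) rose over the mean of zones (5.65% of all genes) and Hist2h4 (1.26) rose in zone 2 (1.02%). Many genes within a core histone family are near-identical in sequence, so the assignment of reads between such copies is uncertain.

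The 22 mitosis genes, led by Cdk1 (mean 8.81 FPKM) and Top2a (mean 5.69 FPKM), had medians farther from 0 than the replication genes in dpc8 against NP in zones 1 and 2 and in dpc16 against dpc8 in the same zones, but not in dpc16 against NP over the mean of zones (-0.24 beside -0.28). In dpc16 against dpc8 in zone 3 the mitosis median was 0.23 beside -0.22. In dpc16 against dpc8 in zone 1, 10 of 22 fell (0.741% of all genes), Mki67 at -3.20 and Ccnb2 at -3.27 among them, at a list median of -2.37 beside -1.14 for the replication genes. Over the mean of zones 8 of 22 fell (5.69% of all genes), at a median of -0.999 beside -0.60, and 20 fell without the 6 libraries (9.21%). With zones of the same number averaged 0 passed. In zone 1 the median of dpc8 against NP was 1.395 with all 22 fitted higher, and 0 passed. Without the 6 libraries 2 of 22 passed there (0.0463% of all genes) and 7 over the mean of zones (0.239%), and 10 of 22 passed as higher in zone 1 than in zone 3 at dpc8 (1.49%). The mean log2 level of the list was 2.15 to 3.52 in the 6 libraries and 0.28 to 2.75 in the others.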

How the data were processed

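RNA was taken by laser microdissection of 5-µm cryosections, with 2 mm2 of each zone per sample. Per the labels, libraries were made from total RNA by ribosomal RNA depletion. The deposited values are FPKM as the authors computed them with Cuffdiff of Cufflinks 2.2.1 over protein-coding GENCODE genes, from uniquely mapped reads trimmed with cutadapt and aligned to mm10 with HISAT2 2.1.0. The strand setting of the counting is not given in the sources used here. Whole reads on different strands of overlapping exons may therefore be mixed.

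Groups and replicate numbers came from the sample titles. Tests used limma (version 3.58.1, R 4.3.3) and the scale log2(FPKM + 1), and took in genes that reached 1 FPKM in 3 or more libraries, with 1 mean per group, an intensity trend, robust settings, two-sided p-values and the Benjamini-Hochberg method over all genes within each of 27 comparisons. The comparisons over the mean of zones treat libraries as separate samples. No set test was run. Depth was estimated from steps between low values, of which 92.01% to 96.66% per library lay within 0.1 of a whole multiple, since the table holds no counts. No confidence interval was computed from it. The procedure was tested on simulated data. At dpc16 the deviations of libraries that share a number were correlated above 0.1 in all 9 pairs of zones (0.26 to 0.86, median 0.36). At NP and dpc8 4 and 5 of 9 were. At dpc16 replicate 3 had the most Y-linked FPKM of its group in every zone (2.97, 23.18 and 16.55 in zones 1, 2 and 3). Deviations from a group mean follow such a library, so the correlations do not show that zones of a number share an animal. Gene positions and exon overlaps came from GENCODE vM21 on the same build.

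Values in every library are given for the gene with the highest mean in each role, for up to 5 genes by p past the threshold in a comparison, and for the 5 smallest unadjusted p-values in each comparison of a pregnant stage with NP in a zone, and of the other lists for the genes past the threshold and the 2 with the highest mean. The result of 1 gene of those lists is not reported here. Where such a gene was named for 1 zone, its values in that zone are given. Mcm5 and Mcm6 are the remaining genes past the threshold, and Rrm2 was described in full after its values were seen. The genes, the lists and the rules were chosen with earlier results of these data known. Alternatives were another pseudocount, other filters, quantile normalization, array weights, the groups compared alone, a connective tissue covariate, a replicate block, each library left out in turn and the 6 libraries left out together. Averaging the zones of a number was added after the data were seen.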

Additional observations from a re-analysis of the deposited data

How the results depend on the processing

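Genes past the threshold are counted among the 43 tested. Where no share of all genes under the same setting is given, a count is not read as a result about the replication genes. With array weights the counts were 1, 1, 2 and 10 in dpc16 against NP (zones 1, 2 and 3 and their mean), 12, 5, 4 and 28 in dpc16 against dpc8, 4 in zone 1 against zone 3 at dpc8 and 1 at dpc16, where under those weights 1.94%, 4.06%, 2.9% and 10.9% of all genes fell from NP to dpc16, 3.65%, 3.52%, 6.11% and 13.5% from dpc8 to dpc16, and 3.77% and 2.07% were higher in zone 1. Without the 6 libraries they were 4, 3 and 24 in dpc16 against dpc8 (zones 1 and 2 and the mean), 5 in dpc16 against NP over the mean, and 1 in zone 1 against zone 3 at dpc8 and at dpc16. In dpc16 against dpc8 in zone 1, a pseudocount of 0.1, the groups compared alone and the connective tissue covariate gave 1 each. Over the mean of zones no filter gave 5, and averaging the zones of a number gave 0 there and 0 in dpc16 against NP (2.14% and 3.08% of all genes passed in either direction with averaging). With the replicate block the count was 1 in zone 1 against zone 3 at dpc8 (Rrm2), where the numbers were not shown to pair the zones. Between stages the block joined libraries of the same number at different stages, which the labels do not pair. Deviations of such libraries had median correlations of 0.01, -0.035 and 0.066 in zones 1, 2 and 3. That block gave 10 and 3 over the mean of zones in dpc16 against dpc8 and against NP, which is no paired check. The block changed no other count. The median of dpc8 against NP in zone 2 was 0.72 with a pseudocount of 0.1 and 0.13 with the covariate, which also gave 0.073 in zone 2 against zone 3 at dpc8 and 0.10 in the dpc8 change of zone 2 minus zone 3. The median of the dpc16 change of zone 1 minus zone 2 was 0.14 with array weights and 0.26 without the 6 libraries, against -0.35. The cause of these changes was not tested. Leaving out each library in turn gave counts of 1 to 16 in dpc16 against dpc8 over the mean, 0 to 5 in its zone 1, 1 to 3 in dpc16 against NP over the mean, 0 to 1 in its zone 1, 0 to 1 in zone 1 against zone 3 at dpc8 and at NP, and 0 in the 20 other comparisons within zones, between zones and of changes and in dpc8 against NP over the mean. The median of the dpc16 change of zone 1 minus zone 2 ran from -0.59 to 0.11, with the positive value without replicate 3 of zone 2 at dpc16. Other medians changed sign too. The dpc16 change ran from -0.107 to 0.651 for zone 2 minus zone 3 and from -0.384 to 0.367 for zone 1 minus zone 3. Among others, dpc16 against dpc8 in zone 3 ran from -0.595 to 0.015 and dpc8 against NP there from -0.273 to 0.12. The falls of Tk1 over the mean of zones passed in 27 of 27 such fits, which count zones of a number as separate samples. With those zones averaged they did not pass. None of the 41 gene differences recomputed under these alternatives turned its direction. These differences were picked by their p-values in the same data, so that result was likely beforehand. With 1 read worth up to 0.133 FPKM on 1 kilobase, values under 1 FPKM rest on few reads.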
